A study of Homo sapiens with 4 samples.

Results

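Genes of protein folding and stress signalling in the endoplasmic reticulum (ER) were examined in Hs683 cells, an established human glioma line, that carried either miR-20a or a scrambled control microRNA called miR-NT. They were chosen by name, as 51 genes listed by role, and found through probe sets annotated to a single gene symbol, each made of several short probes. By that rule 46 of the 51 were on the arrays, out of 17716 genes in all, and 41 were among the 12401 genes tested. PDIA5 and SYVN1 are read by probe sets that the annotation shares with a microRNA gene, and TXNDC5, DERL3 and SEC61G had no annotated probe set; these 5 were not analysed here. ERP44, ERO1B, SEC61B, SEC63 and EIF2AK3 were among the dimmest 30% of genes and were left out of the test, so their values stand below without one. Each of them was read by a single probe set, so a dim value is that of the probe set and need not mean little transcript.

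Both groups carried a knockdown of QK, the gene now called QKI, and each held 2 arrays, with the microRNA introduced by transduction. No array of cells without the knockdown, and none without a transduced microRNA, was analysed here. How the knockdown was made, the vector, and whether the replicates came from separate cultures are not stated in the labels, so the spread behind every p-value below is that of these 4 arrays and may be technical. The values are the authors' log2 expression values, so a difference of 1 is a 2-fold difference in signal. They are averages over a culture, in which fewer cells with a transcript and less of it per cell cannot be told apart.

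Proteins that enter the secretory pathway cross the ER membrane through the Sec61 channel, fold with the help of lectin and heat shock chaperones, and gain disulfide bonds from isomerases that the ERO1 oxidases recharge. Proteins that do not fold are extracted and sent to the proteasome, a process called ER-associated degradation. When unfolded proteins build up, the membrane sensors IRE1 (gene ERN1), PERK (EIF2AK3) and ATF6 start the unfolded protein response, in which the transcription factors XBP1, ATF4 and ATF6 raise chaperones, degradation factors and, under lasting stress, DDIT3 and TRIB3. Much of the chaperone response runs through a promoter element, the ER stress response element.

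The microRNA that separates the groups is shown with 3 relatives because bases 2 to 8, the seed (in capitals), set which transcripts a microRNA can pair with. All 4 have the same seed, AAAGUGC, which 8 mature human microRNAs share in the RefSeq annotation of GRCh38.p14. The gene of miR-20a-5p places the mature sequence on the plus strand at chr13:91351072-91351094. Target sites in the transcripts of the ER genes were not searched, since no transcript sequences were used here.
miR-20a-5p: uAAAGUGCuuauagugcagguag
miR-17-5p: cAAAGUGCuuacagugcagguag
miR-93-5p: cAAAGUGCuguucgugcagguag
miR-106b-5p: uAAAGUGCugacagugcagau

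Promoters of the chaperone genes are shown next because the element for ATF6, and the opposite signs of genes that carry it, bear on the values below. The element (ERSE, the letters CCAAT and CCACG with 9 bases between them) was searched on both strands in windows from 250 bases before to 50 bases after each gene's start, taken from RefSeq on GRCh38.p14, where 48 of the 51 genes had an entry; PDIA3, DERL1 and DERL3 did not. It was present in 6 of these 48 windows (12.5%) and in 22 of 27305 windows of all genes (0.0806%). A shorter form (ERSE-II, ATTGG and CCACG with 1 base between them) was present in 3 of the 48, those of HERPUD1, HYOU1 and SDF2L1, and in 0.0549% of all windows. The ATF4-type element (CARE, TGATG and AA with 1 base between them) was present in 1, that of HERPUD1, and in 3.67% of all windows. No gene here had both ERSE and ERSE-II. In the stretches below, each read along its gene's own strand, capitals mark the match. They lie at chr19:12938374-12938412 (CALR, plus strand), chr5:179698768-179698806 (CANX, plus strand), chr9:125241381-125241419 (HSPA5, minus strand), chr12:103930206-103930349 (HSP90B1, plus strand, 2 matches) and chr22:28800593-28800631 (XBP1, minus strand), all upstream of the transcript start. The sixth gene with the element, ERO1B, was too dim to be tested.
CALR: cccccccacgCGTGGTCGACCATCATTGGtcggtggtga
CANX: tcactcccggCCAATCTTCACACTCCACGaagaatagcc
HSPA5: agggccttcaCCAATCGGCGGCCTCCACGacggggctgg
HSP90B1: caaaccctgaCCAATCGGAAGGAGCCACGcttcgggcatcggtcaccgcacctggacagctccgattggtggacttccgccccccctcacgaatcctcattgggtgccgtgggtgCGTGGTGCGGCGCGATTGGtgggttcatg
XBP1: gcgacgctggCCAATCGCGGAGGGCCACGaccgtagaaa

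Control probe sets for transcript 5' ends set the miR-20a arrays apart, replicate 2 most. Their signal can follow RNA integrity and labelling, and also the level of the transcript itself. No 3' control values are given here, so these were not told apart. The ACTB 5' control read 12.78 and 12.66 on the miR-NT arrays and 11.59 and 10.43 on the miR-20a arrays, and the GAPDH 5' control 13.89 and 13.81 against 13.17 and 12.30. QKI read 8.14 and 7.92 on the miR-NT arrays and 7.52 and 7.08 on the miR-20a arrays (limma adjusted p = 0.106). Of 9 glioma and glial markers on the arrays, 5 (GFAP, S100B, OLIG1, OLIG2 and NES) were among the dim genes on these arrays. VIM lay between 14.02 and 14.32, CD44 between 10.08 and 11.24, SOX10 between 6.86 and 7.11 and SOX2 between 5.75 and 6.05. Of the markers of other cell types, 2 of 3 immune (PTPRC and CD14), 3 of 4 epithelial (EPCAM, CDH1 and KRT19), 2 of 3 endothelial (CDH5 and VWF) and 1 of 4 fibroblast genes (DCN) were dim. KRT18 lay between 12.54 and 12.73, the immune marker AIF1 between 7.43 and 7.71 and the endothelial PECAM1 between 5.72 and 6.10. Among the fibroblast genes, COL1A1 lay between 12.29 and 12.74, PDGFRB between 8.39 and 8.51 and COL1A2 between 5.50 and 5.76.

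No ER gene passed the test over all genes. At an adjusted p under 0.05 (limma, Benjamini-Hochberg over 12401 genes), 0 of 41 were lower and 0 were higher with miR-20a, where the background over all genes was 0.00806% lower and 0% higher. At an unadjusted p under 0.05, 13 of the 41 were lower (31.7%) and 0 were higher, beside 13.2% and 5.82% of all genes. The miR-20a arrays were both below the lower miR-NT array for 21 members (51.2%, background 31.1%) and both above the higher one for 8 (19.5%, background 25.1%). A log2 fold change below 0 was measured for 31 of 41, or 75.6%, where 53.8% of all genes had one. The median log2 fold change was -0.17, against -0.02 over all genes tested, with the members ranging from -2.42 (P4HB) to 0.21 (HSPA5 and HSP90B1).

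**Figure D1:**
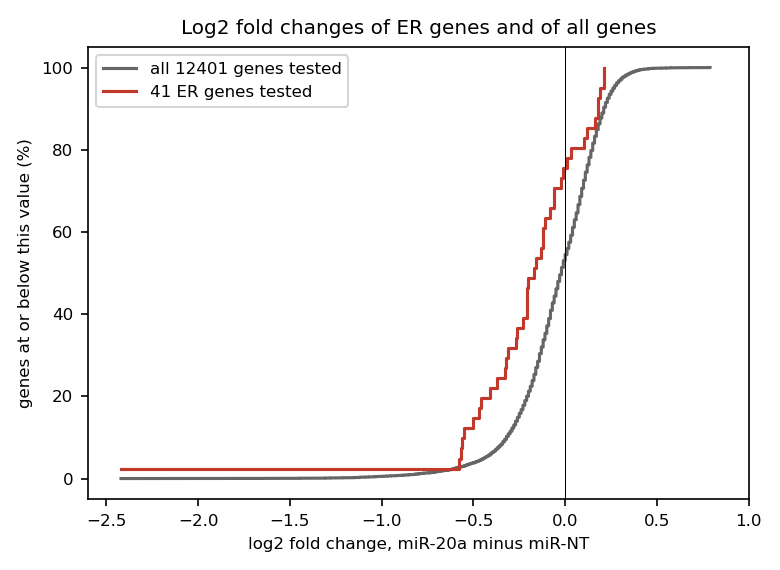
Cumulative share of genes (y axis, percent) by log2 fold change, miR-20a minus miR-NT (x axis), for all 12401 genes tested (grey) and for the 41 ER genes tested (red). The red curve reaches 75.6% at 0 and the grey curve 53.8%, with medians of -0.17 and -0.02, and the single red step at the far left is P4HB at -2.42.

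The ER genes were mostly bright on these arrays, and bright genes tended to be lower with miR-20a. When the tested genes were split into 3 classes of equal size by their mean over all arrays, 31 of the 41 members were in the brightest class, where the median of all 4134 genes was -0.08 and 66.1% had a log2 fold change below 0. The 31 members had a median of -0.16, and 24 of them lay below 0. In the middle class all genes had a median of 0 and the 7 members one of -0.47. In the dimmest class all genes had a median of 0.03 and the 3 members one of 0.10. The split into lower and higher also depended on scaling: after quantile normalization 11 members were lower and 5 higher at an unadjusted p under 0.05 (all genes 11.7% and 12.8%). The 5 were SEC62, SSR1, PDIA4, HSPA5 and HSP90B1. In that scaling 25 of the 41 lay below 0 (all genes 45.2%), and the members' median was -0.06 beside 0.03 over all genes.

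**Figure D2:**
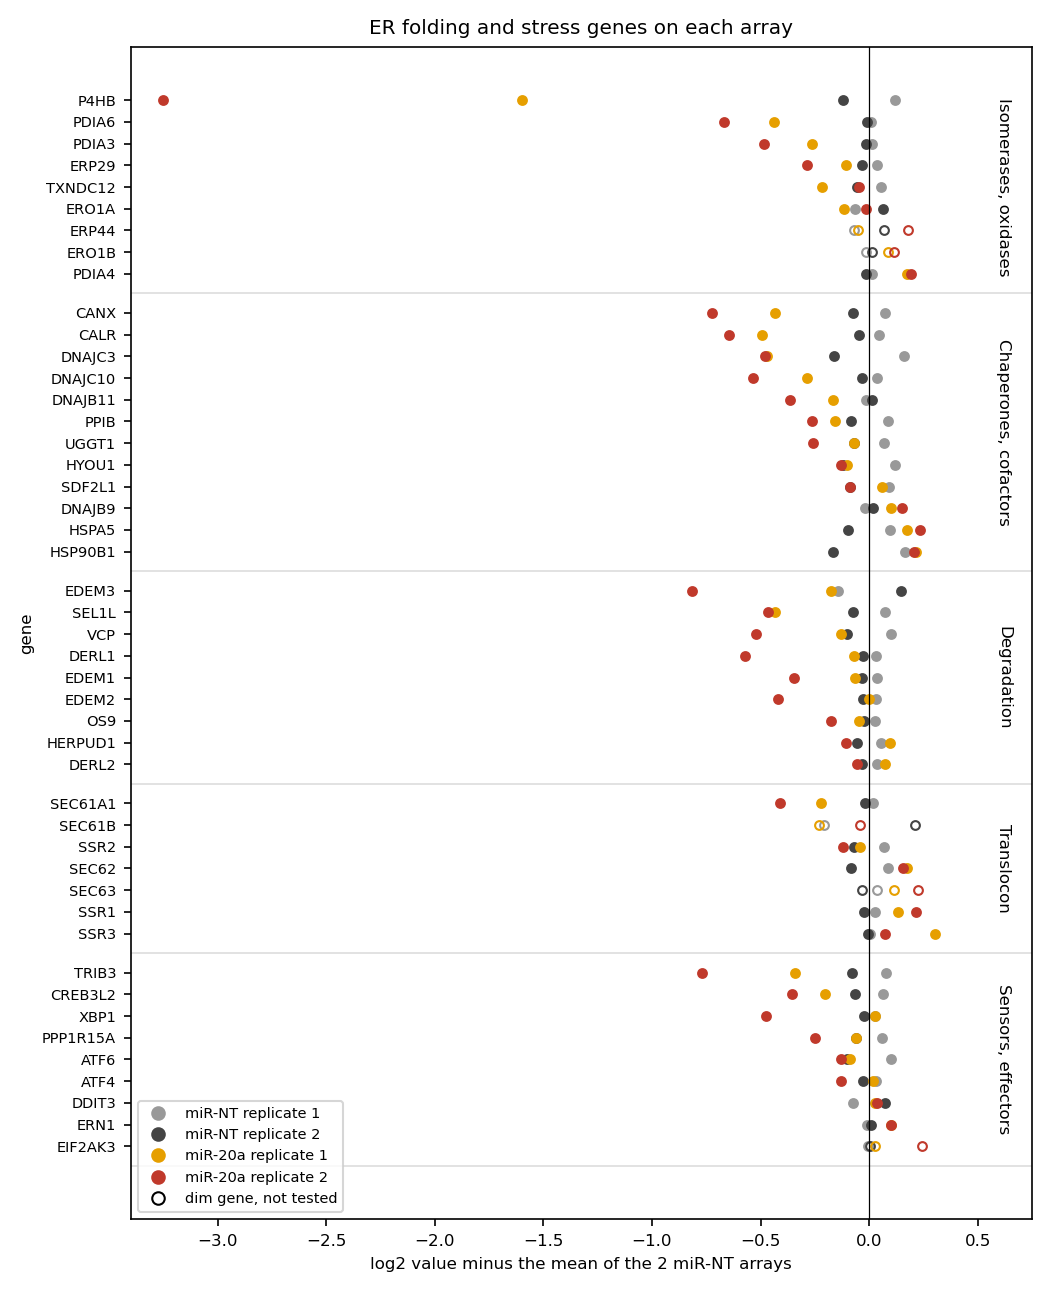
Value of each of the 46 measured ER genes on each array, as the log2 value minus the mean of the miR-NT arrays (x axis), with genes grouped by role (y axis); grey and black points are miR-NT replicates 1 and 2, orange and red points miR-20a replicates 1 and 2, and open points genes too dim to be tested. The red points lie left of the orange ones in most rows, widest for P4HB, and the chaperones HSPA5 and HSP90B1 and the subunit SSR1 lie right of 0 on both miR-20a arrays.

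Disulfide isomerases and their oxidases gave a median of -0.20 on the log2 fold change scale; of 7 tested genes 6 lay below 0 and 1 above. P4HB, the archetypal protein disulfide isomerase and also the beta subunit of collagen prolyl 4-hydroxylase, read 9.53 and 9.29 on the miR-NT arrays and 7.81 and 6.16 on the miR-20a arrays. The groups did not overlap, but the miR-20a arrays stood far apart: replicate 2 minus replicate 1 was -1.65, and -0.24 in the miR-NT pair. The means were 9.41 ± 0.166 and 6.99 ± 1.17 (SD, n = 2 each), a 5.37-fold lower signal (log2 fold change -2.42, SE 0.44, limma adjusted p = 0.0949). P4HB was read by a single probe set, as was every measured member but CANX and DNAJC3, so no second probe set could be compared. The same miR-20a array was lowest for P4HB and for the ACTB 5' control, and adding that control as a covariate gave a log2 fold change of 0.02 (SE 0.25). Because the control followed the groups, this fit rests mostly on the difference between the miR-20a arrays. Its SE was 0.25 for every member and does not measure a gene's own spread. The log2 fold change of P4HB was -1.60 without miR-20a replicate 2 and -3.25 without replicate 1. In both of these fits the SE was 0.13 or 0.14 for every member, so it does not measure the spread of P4HB. Without miR-NT replicate 1 the log2 fold change was -2.31, and without miR-NT replicate 2 it was -2.54.

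**Figure D3:**
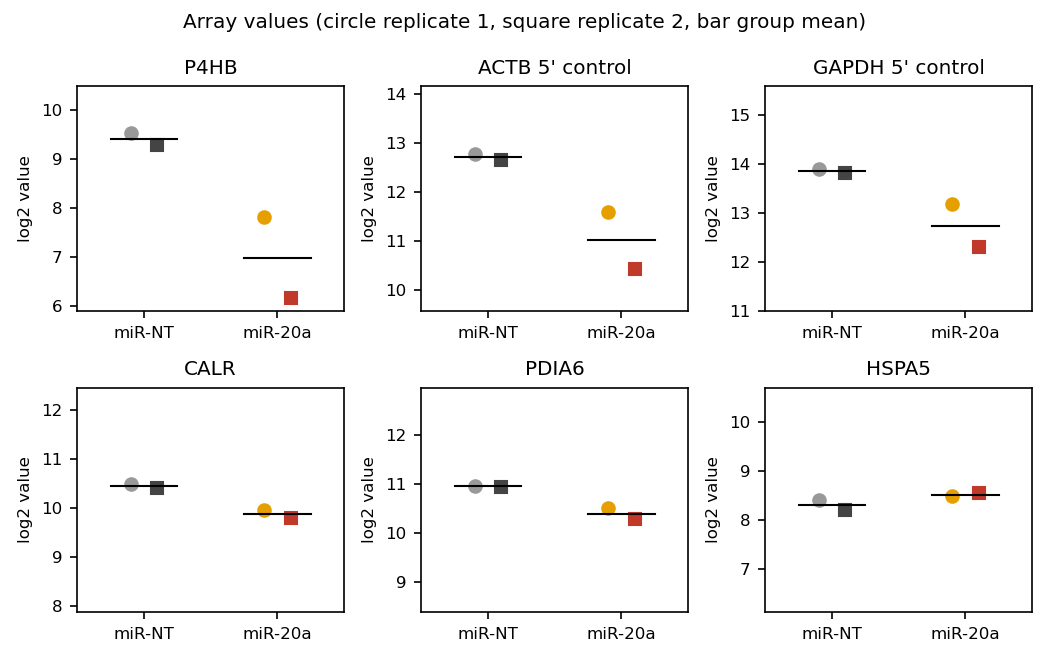
Log2 values (y axis) on each array by group (x axis) for P4HB, the ACTB and GAPDH 5' controls, CALR, PDIA6 and HSPA5; circles are replicate 1, squares replicate 2 and bars the group means, and every panel spans the same number of log2 units. P4HB and both controls have the same order, with miR-20a replicate 2 lowest, at 6.16, 10.43 and 12.30, while HSPA5 reads 8.48 and 8.54 on the miR-20a arrays and 8.40 and 8.21 on the miR-NT arrays.

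PDIA6, an isomerase that works with the chaperone HSPA5, read 10.96 and 10.94 on the miR-NT arrays and 10.51 and 10.28 on the miR-20a arrays. Its groups did not overlap (log2 fold change -0.55, SE 0.11, 1.47-fold lower, limma adjusted p = 0.0963). Replicate 2 minus replicate 1 of PDIA6 was -0.02 in the miR-NT pair and -0.22 in the miR-20a pair. PDIA3, the isomerase that binds calreticulin and calnexin to fold glycoproteins, measured 11.74 and 11.71 against 11.46 and 11.24 (log2 fold change -0.37, SE 0.11, limma adjusted p = 0.169). Once the ACTB 5' covariate was added, PDIA6 was at -0.23 and PDIA3 at -0.04 (SE 0.25 each). PDIA4, a larger isomerase of the same family, went the other way, at 10.21 and 10.18 on the miR-NT arrays against 10.37 and 10.39 (log2 fold change 0.18, SE 0.09, limma adjusted p = 0.323). Pairs of arrays were close together in each group of PDIA4, and the groups did not overlap. The noncatalytic family member ERP29 was at -0.20 and TXNDC12, a small thioredoxin-like oxidoreductase, at -0.13. The oxidase ERO1A, which hands oxidizing power to the isomerases, was at -0.06, with overlapping groups. ERP44, which retains ERO1 in the early secretory pathway, and the second oxidase ERO1B measured 4.83 to 5.08 and 4.80 to 4.93 over the 4 arrays, both too dim to be tested.

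Over the 12 tested chaperones and cofactors the median log2 fold change was -0.19, with 9 below 0 and 3 above, and none passed over all genes. The values of CALR and CANX, lectin chaperones that hold glycoproteins during folding, were lower on both miR-20a arrays than on the miR-NT arrays. CALR read 10.50 and 10.41 on the miR-NT arrays and 9.96 and 9.81 on the miR-20a arrays (log2 fold change -0.57, SE 0.10, 1.48-fold lower, limma adjusted p = 0.0949). Both miR-20a arrays stood at a like distance from the miR-NT mean, at -0.50 and -0.64. CANX, the membrane-bound relative of CALR, measured 9.95 and 9.80 against 9.44 and 9.15 (log2 fold change -0.58, SE 0.13, limma adjusted p = 0.111). A second CANX probe set, dim at a mean of 4.91, had a log2 fold change of -0.30. Fitted with the ACTB 5' covariate, CALR was at -0.34 and CANX at -0.13 (SE 0.25 each). Without miR-20a replicate 1 CALR was at -0.64 and CANX at -0.73, and without replicate 2 they were at -0.50 and -0.44.

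HSPA5 (BiP), the central chaperone of the ER lumen and the usual readout of the unfolded protein response, read 8.40 and 8.21 on the miR-NT arrays and 8.48 and 8.54 on the miR-20a arrays. The groups lay next to each other without overlap, and the log2 fold change of 0.21 (SE 0.11, limma adjusted p = 0.322) was about as large as the distance within the miR-NT pair (replicate 2 minus replicate 1, -0.19). HSP90B1 (GRP94), its partner of the HSP90 family, measured 8.86 and 8.53 against 8.91 and 8.90 (log2 fold change 0.21, SE 0.13, limma adjusted p = 0.38). Its probe set has the suffix x_at, which marks probes that can also match other transcripts. Both kept their sign in every alternative run, between 0.11 and 0.30 for HSPA5 and between 0.05 and 0.37 for HSP90B1.

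Of the 4 cofactors of HSPA5 with a DNAJ domain, 3 had a log2 fold change below 0. DNAJC3 (p58IPK), which delivers clients to HSPA5, read 7.93 and 7.61 on the miR-NT arrays and 7.30 and 7.29 on the miR-20a arrays on its brighter probe set (log2 fold change -0.47, SE 0.13, limma adjusted p = 0.143). The other DNAJC3 probe set read 7.38 and 6.88 against 7.18 and 7.48, a log2 fold change of 0.20 with overlapping groups, so that the gene's 2 probe sets disagree in sign. DNAJC10 (ERdj5), a reductase that prepares proteins for degradation, measured 8.79 and 8.72 against 8.47 and 8.22 (log2 fold change -0.41, SE 0.12, limma adjusted p = 0.158), and the ACTB 5' covariate brought it to -0.03. DNAJB11 (ERdj3) was at -0.26 and DNAJB9 (ERdj4), a cofactor that restrains the sensor IRE1, at 0.12. The HSPA5 exchange factor HYOU1 was at -0.12 and SDF2L1, which works with DNAJB11, at -0.02. PPIB, a prolyl isomerase that takes part in collagen folding, was at -0.21 and UGGT1, the glucosyltransferase that marks misfolded glycoproteins for another round with CALR and CANX, at -0.17. None of these 6 had an adjusted p below 0.248.

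The 8 tested genes with ERSE or ERSE-II in the promoter shown or named above did not share a direction. Their log2 fold changes ran from -0.58 (CANX) to 0.21, 6 below 0 and 2 above (all genes 53.8% below 0). The median was -0.07, and the other 33 tested members had a median of -0.20. That -0.07 pools ERSE with ERSE-II, a form added after the data were seen. Genes with ERSE-II were at -0.12 (HYOU1), -0.02 (SDF2L1) and -0.01 (HERPUD1). Those tested with ERSE were at -0.58 (CANX), -0.57 (CALR), -0.23 (XBP1) and 0.21 (HSPA5 and HSP90B1). Both miR-20a arrays were below both miR-NT arrays for 2 of the 8, CALR and CANX (all genes 31.1%). They were both above for 2, HSPA5 and HSP90B1 (all genes 25.1%), and HYOU1, SDF2L1, HERPUD1 and XBP1 overlapped.

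For ER-associated degradation 9 genes were tested, 8 below 0 and 1 above, with -0.21 as their median on the log2 fold change scale, and none passed over all genes. Replicate 2 was below replicate 1 for all 9 in the miR-20a pair (all genes 58.9%) and for 8 of the 9 in the miR-NT pair (all genes 66.5%). On miR-20a replicate 1 the median deviation from the miR-NT mean was -0.07, and on replicate 2 it was -0.42. SEL1L, the scaffold of the HRD1 ubiquitin ligase, differed least between the miR-20a arrays: it read 6.34 and 6.19 on the miR-NT arrays and 5.83 and 5.80 on the miR-20a arrays (log2 fold change -0.46, SE 0.10, 1.37-fold lower, limma adjusted p = 0.115). Within its miR-20a pair replicate 2 minus replicate 1 was -0.03, and its log2 fold change stayed between -0.53 and -0.38 over the alternatives run, the ACTB 5' covariate included. EDEM3, a mannosidase that trims glycans to mark proteins for degradation, measured 7.05 and 7.34 against 7.02 and 6.38 (log2 fold change -0.50, SE 0.20, limma adjusted p = 0.25). Here only replicate 2 stood clear of the control arrays.

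VCP (p97), the ATPase that pulls proteins out of the membrane, read 11.79 and 11.59 on the miR-NT arrays and 11.56 and 11.17 on the miR-20a arrays (log2 fold change -0.33, SE 0.15, limma adjusted p = 0.275). DERL1, a subunit of the retrotranslocation channel, measured 9.22 and 9.16 against 9.12 and 8.62 (log2 fold change -0.32, SE 0.16, limma adjusted p = 0.313). EDEM1 and EDEM2, relatives of EDEM3, were both at -0.21, and the lectin OS9 at -0.11. HERPUD1, a stress-induced partner of the HRD1 ligase, measured 9.85 and 9.74 against 9.89 and 9.69, with a log2 fold change of -0.01 (SE 0.11, limma adjusted p = 0.972) that turned to 0.10 after quantile normalization and to 0.29 with the ACTB 5' covariate. DERL2 was at 0.01. Without miR-20a replicate 2 the values of EDEM3, VCP and DERL1 were -0.18, -0.13 and -0.07, and in the fit with the ACTB 5' covariate they were 0.40, 0.27 and 0.43 (SE 0.25 each).

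None of the 5 tested translocon genes passed over all genes. SEC61A1, the pore-forming subunit, read 8.70 and 8.66 on the miR-NT arrays and 8.46 and 8.27 on the miR-20a arrays (log2 fold change -0.31, SE 0.11, limma adjusted p = 0.201), and its groups did not overlap. It too is read by an x_at probe set, and with the ACTB 5' covariate its log2 fold change was -0.04 (SE 0.25). SSR1, a subunit of the TRAP complex that sits beside the channel, measured 11.84 and 11.79 against 11.95 and 12.03 (log2 fold change 0.18, SE 0.10, limma adjusted p = 0.342). SSR3, of the same complex, measured 7.23 and 7.22 against 7.53 and 7.30 (log2 fold change 0.19, SE 0.11, limma adjusted p = 0.377). SEC62, which helps small proteins into the channel, measured 11.03 and 10.86 against 11.12 and 11.10 (log2 fold change 0.16, SE 0.10, limma adjusted p = 0.403). For these 3, both miR-20a arrays were above both miR-NT arrays (all genes 25.1%). With the covariate their log2 fold changes were 0.08, 0.53 and 0.21. The TRAP subunit SSR2 was at -0.08 in the fit as reported, with overlapping groups. The median of the 5 tested genes was 0.16, the only role with a median above 0 in the fit as reported, and 3 of the 5 were above 0. The channel subunit SEC61B measured 4.88 to 5.32 and SEC63, which recruits HSPA5 to the channel, 4.33 to 4.59, both among the dim genes.

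Sensors of the unfolded protein response differed little between the groups. ERN1 (IRE1) measured 6.15 and 6.17 with miR-NT and 6.26 on both miR-20a arrays (log2 fold change 0.10, SE 0.09, limma adjusted p = 0.543). ATF6 measured 9.24 and 9.04 against 9.05 and 9.01, with overlapping groups (log2 fold change -0.12, SE 0.11, limma adjusted p = 0.544). EIF2AK3 (PERK) was dim, at 4.30 and 4.31 against 4.33 and 4.55. Array values give transcript levels and not the cleavage, splicing or phosphorylation by which these sensors signal.

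All tested effectors but DDIT3 had a log2 fold change below 0, and none passed over all genes. XBP1, whose messenger RNA is spliced by IRE1, read 8.97 and 8.92 on the miR-NT arrays and 8.97 and 8.47 on the miR-20a arrays (log2 fold change -0.23, SE 0.16, limma adjusted p = 0.432), so that replicate 1 matched the controls and replicate 2 did not. ATF4, the factor translated when PERK is active, measured 11.49 and 11.43 against 11.48 and 11.33 (log2 fold change -0.06, SE 0.10, limma adjusted p = 0.745), and its sign turned (0.08) after quantile normalization. DDIT3 (CHOP), the stress factor tied to cell death, measured 8.98 and 9.13 against 9.08 and 9.09 (log2 fold change 0.03, SE 0.10, limma adjusted p = 0.865). The groups overlapped for all 3. TRIB3, a pseudokinase induced by ATF4 and DDIT3, measured 7.43 and 7.27 against 7.01 and 6.58 without overlap (log2 fold change -0.56, SE 0.15, 1.47-fold lower, limma adjusted p = 0.152). It was at 0.10 (SE 0.25) in the fit with the ACTB 5' covariate, at -0.77 without miR-20a replicate 1 and at -0.34 without replicate 2.

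CREB3L2, an ER-anchored factor that is cleaved like ATF6, read 10.64 and 10.51 on the miR-NT arrays and 10.37 and 10.22 on the miR-20a arrays (log2 fold change -0.27, SE 0.11, limma adjusted p = 0.238), and the ACTB 5' covariate brought it to -0.04. PPP1R15A (GADD34), the phosphatase subunit that ends the translational block, measured 9.89 and 9.77 against 9.77 and 9.58 (log2 fold change -0.16, SE 0.11, limma adjusted p = 0.427). The covariate gave 0.14 for PPP1R15A, 0.52 for XBP1, 0.17 for ATF4, -0.03 for ATF6 and -0.01 for DDIT3. The median of the 8 tested sensors and effectors was -0.14, with 6 below 0 and 2 above. It was -0.02 on miR-20a replicate 1 and -0.20 on replicate 2, as medians of the deviation from the miR-NT mean.

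The miR-20a arrays differed from each other across the whole set. Replicate 2 was below replicate 1 for 34 of the 41 members (82.9%), beside 58.9% of all genes, and the median deviation of the members from the miR-NT mean was -0.07 on replicate 1 and -0.26 on replicate 2. In the miR-NT pair replicate 2 was the lower one for 35 of the 41 (85.4%, all genes 66.5%), with a median difference of only -0.08. Without miR-20a replicate 1 limma called 15 members lower and 0 higher at an adjusted p under 0.05 (all genes 12.6% lower and 2.44% higher). These were P4HB, PDIA3, PDIA6, CALR, CANX, DNAJC3, DNAJC10, SEL1L, EDEM2, EDEM3, DERL1, VCP, SEC61A1, XBP1 and TRIB3, in a fit that takes the spread from the miR-NT pair alone. Without replicate 2 it called 2, P4HB and CALR, lower and 0 higher (all genes 1.86% and 0.234%), and the members' median was -0.07. Without either miR-NT array it called none. At an unadjusted p under 0.05 the count of 13 lower members became 8 without miR-20a replicate 2 (all genes 9.02%) and 6 without miR-NT replicate 1 (4.43%). Once the ACTB 5' covariate was included, 0 members were lower and 2, SSR3 and XBP1, higher at an unadjusted p under 0.05 (all genes 3.46% and 3.36%). The median was then 0.08, beside 0.05 over all genes. The 5' control signals followed the groups, so that RNA or labelling quality and the microRNA cannot be told apart with these 4 arrays.

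**Figure D4:**
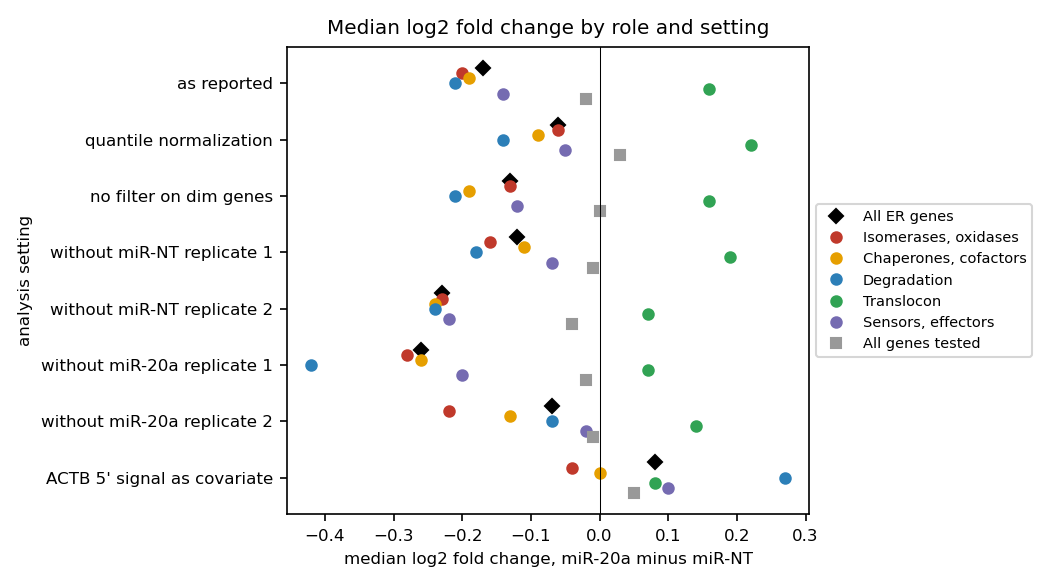
Median log2 fold change, miR-20a minus miR-NT (x axis), of all tested ER genes (black), of each role (colours) and of all genes tested (grey) under each analysis setting (y axis). The translocon median is above 0 in every setting drawn, from 0.07 to 0.22, and the degradation median runs from -0.42 without miR-20a replicate 1 to 0.27 under the ACTB 5' covariate.

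Other genes of the ER, taken from a list of 66 that shares no gene with the set above, gave a median of -0.14 on the log2 fold change scale; of 59 tested genes 42 lay below 0 and 17 above (all genes 53.8% below 0). None passed over all genes, and 16 were lower and 0 higher at an unadjusted p under 0.05 (all genes 13.2% and 5.82%). All 11 subunits and partners of the oligosaccharyltransferase, which attaches N-glycans to proteins at the translocon, lay below 0, with a median of -0.22 and a range from -0.47 (DDOST) to -0.03. Both miR-20a arrays were below both miR-NT arrays for 9 of the 11 (all genes 31.1%). Of all genes in the brightest class, 66.1% lay below 0. GANAB, the catalytic subunit of glucosidase II that trims glycans for CALR and CANX, had the smallest p of the list and read 11.55 and 11.33 on the miR-NT arrays and 10.98 and 10.62 on the miR-20a arrays (log2 fold change -0.64, SE 0.14, limma adjusted p = 0.115). LMAN1, a lectin that carries glycoproteins from the ER to the Golgi, measured 7.43 and 6.66 against 6.22 and 5.84 (log2 fold change -1.02, SE 0.24, limma adjusted p = 0.122). On the positive side the smallest p belonged to the peroxidase GPX8 and the receptor subunit SRPRB, both at 0.19. The other folding factors of this list had a median of 0.03 over 11 tested genes, 4 below 0 and 7 above. Those below 0 included the isomerases TMX1, TMX2 and TMX4, at -0.57, -0.25 and -0.18.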

How the data were processed

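The deposited values are log2 expression values by the authors, with a value for each probe set on each array (unit judged from the range). Per the submitters' processing notes the R package affy was used, with no version; per the labels' protocols 6 ug of total RNA was labelled. Which summarisation, background correction, normalization and probe set selection led to the 20323 listed probe sets is not given in the sources used here. Platform annotation gave 18060 probe sets a single gene symbol, 886 several and 1375 none, and 18034 identifiers matched the RefSeq gene table (GRCh38.p14). The 3 control probe sets were not tested. The brightest probe set (mean of 4 arrays) stood for its gene, and the dimmest 5315 genes (30%) were left out.

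The two-sided test of miR-20a minus miR-NT used limma 3.58.1 under R 4.3.3 (2 residual degrees of freedom, moderated SE), with Benjamini-Hochberg adjustment over all tested genes, and was tested on simulated data. With 2 arrays a group, exact permutation reaches no p under 0.333, and it was left out. The number of arrays limits the precision, and fits with a covariate, a block or an array left out have fewer degrees of freedom.

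The members and lists were chosen with earlier results of these data known; no p over a list and no set test was computed. Array values are printed for the 4 members of each role with the smallest p and for a list of central genes; of the further ER genes the 2 smallest p in each direction are named, and DDOST was added after its value was seen. ERSE-II and CARE were added after the data were seen, and planned protein motifs were not run. The alternatives tried were 2 other scalings (quantile, median), 2 other filters (none, dimmest 50%), a trended robust prior, averaged probe sets, a covariate for ACTB 5' signal, a replicate block and leaving out each array.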

Additional observations from a re-analysis of the deposited data

How the results depend on the processing

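In 305 of 322 refits the named members kept the sign of their log2 fold change. The sign changed for P4HB (0.02), EDEM3 (0.40) and TRIB3 (0.10), whose unadjusted p had been under 0.05, all with the ACTB 5' covariate, and in 14 refits of genes with a larger p. No member was called under quantile normalization, median centring, either filter, the intensity trend, the mean of probe sets, the covariate or the replicate block.

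Over all genes, 5 lower genes were called after quantile normalization, 45 lower and 2 higher after median centring, 4 lower with the dimmest 50% left out, 23 lower and 1 higher with the intensity trend, and 5 lower and 1 higher with the covariate. Same-numbered arrays share only a number (correlation of their deviations 0.267 over 12401 genes); with the replicate block 0 genes were called, and 14 members were lower at an unadjusted p under 0.05.

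At that p, 5 members were higher after quantile normalization, and 0 were lower and 2 higher with the covariate. Quantile normalization gave medians of -0.06 (all members), -0.06 (isomerases), -0.09 (chaperones) and -0.05 (sensors and effectors). The covariate gave 0.08, -0.04 and 0 for the first 3, 0.10 for sensors and effectors, 0.27 for degradation and 0.08 for the translocon. Without a filter the isomerase median was -0.13. The cause of these shifts was not tested.

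With each array left out in turn, 0 to 1567 lower and 0 to 302 higher genes were called over all genes, 0 to 15 lower members, and at an unadjusted p under 0.05 6 to 19 lower and 0 to 1 higher members. Such fits assume that a lone array varies like the other group. The medians ran from -0.26 to -0.07 (all members), -0.28 to -0.16 (isomerases), -0.26 to -0.11 (chaperones), -0.42 to -0.07 (degradation), 0.07 to 0.19 (translocon) and -0.22 to -0.02 (sensors and effectors). Signal over background was not given for these arrays.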
